A study of Mus musculus with 9 samples.

Results

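The comparison described here sets mouse bone-marrow-derived macrophages given an isotype antibody, an antibody protein with no intended target in the culture, against macrophages that received no antibody. It takes 6 of the 9 libraries of the study, chosen by their labels: isotype antibody 4, 5 and 6 (n = 3) and untreated 7, 8 and 9 (n = 3). The other 3 libraries come from wells given an antibody against PD-L1 and are used for the spread estimate and, for a few genes, as values alongside. All cells came from wild-type C57Bl/6 marrow grown for 1 week with M-CSF (macrophage colony-stimulating factor, 10 ng/ml), after which M-CSF was washed out and 50000 cells were plated for 48 h. The isotype antibody (BioXcell) was present at 100 µg/ml. The labels do not say whether untreated wells received the antibody's buffer, nor do they say that the wells were separate animals or cultures. The p-values therefore reflect the spread between these wells alone, and that spread could be technical.

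Macrophages carry Fc receptors, which bind the constant part of an antibody whatever its target. Activating Fc receptors signal through the gamma chain (Fcer1g) and the kinase Syk, Fcgr2b is inhibitory, and the neonatal receptor (Fcgrt) recycles antibody inside the cell. C1q, the first component of the classical complement pathway, is assembled from chains A, B and C, which are encoded side by side and made largely by macrophages, and it too binds the constant part of antibodies. Apolipoprotein E (Apoe) carries lipid out of cells, and the mannose receptor (Mrc1) takes up glycoproteins. Both are used as markers of resident-like or alternatively activated macrophages.

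Values are CPM: exonic read equivalents (coverage per exonic base times exon length over the read length) per 1e+06 of the library's total, after TMM scaling. Library totals in this comparison ran from 23554320 exonic read equivalents (untreated 7) to 40116467 (untreated 9). Log2 fold changes are isotype minus untreated of log2(CPM + 1), so changes of low genes are understated. Where several values follow a gene name, they stand in the order isotype 4, 5 and 6, then untreated 7, 8 and 9. The macrophage marker genes on the list were high in all 6 libraries, with Lyz2 between 10060 and 15130 CPM, Csf1r between 2561 and 2982 and Adgre1 (F4/80) between 1475 and 1997. In bulk RNA, fewer cells of a type and less RNA per cell cannot be told apart.

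The untreated libraries did not form 1 group. Over 13728 tested genes the median absolute difference between untreated 8 and untreated 9 was 0.097 on the log2 scale, against 0.224 and 0.226 between untreated 7 and those 2 libraries. Untreated 7 stood closer to the isotype antibody libraries (0.144, 0.13 and 0.156 to isotype 4, 5 and 6) than to the other untreated wells. The isotype antibody libraries differed among themselves by 0.131 to 0.143. Along the first principal component of the 6 libraries, which held 65.4% of the variance, untreated 8 and 9 lay at 20.87 and 20.6, untreated 7 at -13.11 and isotype 4, 5 and 6 at -3.37, -8.63 and -16.35. The deposited names of all 6 libraries carry the same flow cell and lane codes. The number of genes passing in limma and the calls in each gene list are therefore given with and without untreated 7. That library was singled out by its values, so calls made once it is left out are no separate support for a difference.

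**Figure D1:**
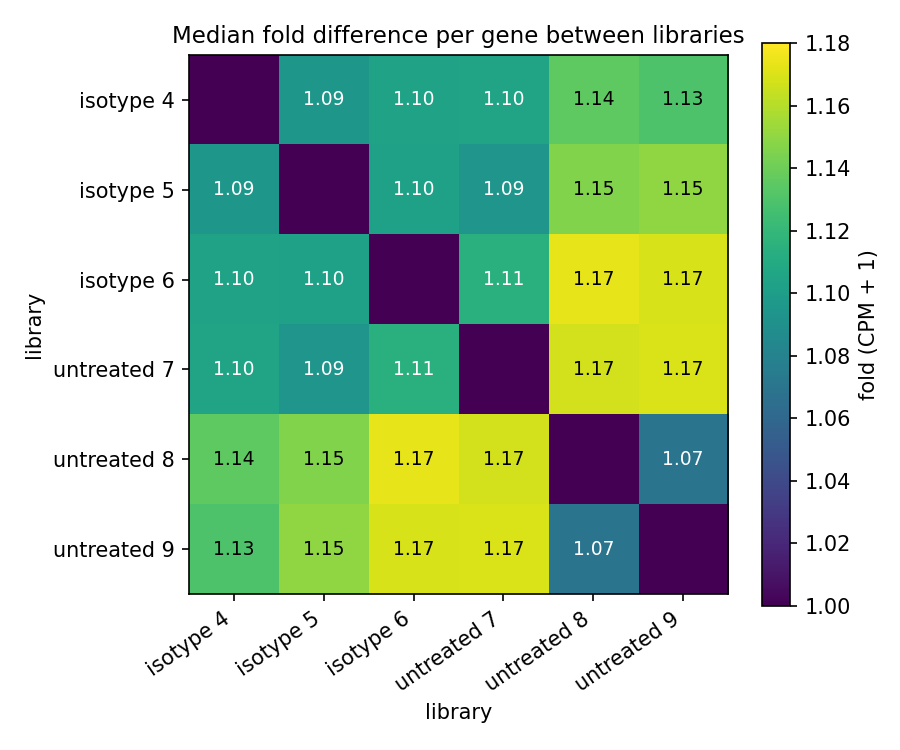
Median fold difference per gene between each pair of the 6 libraries (rows and columns, colour and printed fold on the CPM + 1 scale, tested genes). Untreated 8 and 9 differ from each other by a median of 1.07-fold, and untreated 7 differs from them by 1.17-fold and from isotype 5 by 1.09-fold.

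With all 9 libraries in the fit, 1 of 13728 genes passed (0.00728%), taking limma's Benjamini-Hochberg adjusted p and a threshold of 0.05. That gene was Fosb, which was higher with the isotype antibody. No gene was called lower, while 1745 genes (12.7%) had an unadjusted p under 0.05. The 3 isotype antibody libraries lay wholly above the 3 untreated ones for 1045 genes (7.61%) and wholly below for 757 (5.51%). Other tools made other counts: edgeR on the same values called 0 genes (1720 at an unadjusted p under 0.05), and DESeq2 on the deposited read counts called 148 of 17185, of which 84 were higher.

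Fosb encodes FosB, a partner of Jun proteins in the AP-1 transcription factor and a member of the immediate early genes, whose transcription starts within minutes of a stimulus without new protein synthesis. Fosb stood at 17.73, 21.82 and 22.7 CPM in isotype 4, 5 and 6 and at 3.513, 1.281 and 0.7463 CPM in untreated 7, 8 and 9. The groups did not overlap, and the highest untreated library, untreated 7, was well under the lowest isotype antibody library. The rise was 3.05 on the log2 scale (SE 0.32, limma adjusted p = 0.0173), with group means of 20.75 ± 2.65 and 1.847 ± 1.47 CPM (SD, n = 3). In the wells given the PD-L1 antibody Fosb stood at 21.53, 15.16 and 31.57 CPM, values inside, below and above the range of the isotype antibody libraries. The deposited reads over the gene's span were 940, 907 and 1314 against 185, 91 and 74.

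The Fosb difference kept its direction in all 22 alternative settings, while its adjusted p crossed the threshold in 9 of them. Over these alternatives the log2 fold change of Fosb ran from 1.93 to 3.58 and its adjusted p from 1.53e-08 to 0.418, and it passed in 13. Without untreated 7 the log2 fold change was 3.43 (limma adjusted p = 8.95e-05). Without isotype 4, isotype 5, isotype 6, untreated 8 or untreated 9 the limma adjusted p was 0.083, 0.197, 0.2, 0.111 and 0.0538.

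Fosb lies on chromosome 7, 19302696 to 19310045, on the minus strand in GRCm38 coordinates, and overlaps no other annotated gene. The files list transcripts with 3776 and 3636 exonic bases, which differ by a segment of 140 bases that the transcript of the truncated protein ΔFosB lacks. Coverage per base of that segment was 1.99, 2.6 and 1.88 times that of the rest of the transcript in isotype 4, 5 and 6. In untreated 7, 8 and 9 it was 1.39, 2.78 and 7.16 times, on a coverage of only 3.44, 1.42 and 0.976 reads per base over the rest, which is too thin to compare the isoforms between groups.

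The promoter of Fosb is shown because it is the gene that passed the test, and those of C1qb and C1qc because these neighbouring genes had like values from library to library. Each is the RefSeq sequence of GRCm38.p6 from 250 bases before to 50 bases after the start, read 5′ to 3′ on the gene's strand. Capitals mark TGACG, the core of the cyclic AMP response element, in Fosb (chr7:19309996-19310295), where it begins 60 bases before the start. They mark GAGGAA, the letters bound by the macrophage factor PU.1, in C1qb (chr4:136886151-136886450, 30 bases before that start, which lies 23 bases upstream of the start of the C1qb transcript in the files) and its reverse complement in C1qc (chr4:136892865-136893164, 193 bases before the start). C1qa is named only.
Fosb: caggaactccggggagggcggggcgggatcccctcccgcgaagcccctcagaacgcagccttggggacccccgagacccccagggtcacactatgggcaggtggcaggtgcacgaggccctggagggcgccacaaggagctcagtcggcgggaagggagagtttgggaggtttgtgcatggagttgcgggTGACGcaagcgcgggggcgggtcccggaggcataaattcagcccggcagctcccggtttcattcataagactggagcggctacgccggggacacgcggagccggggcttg
C1qb: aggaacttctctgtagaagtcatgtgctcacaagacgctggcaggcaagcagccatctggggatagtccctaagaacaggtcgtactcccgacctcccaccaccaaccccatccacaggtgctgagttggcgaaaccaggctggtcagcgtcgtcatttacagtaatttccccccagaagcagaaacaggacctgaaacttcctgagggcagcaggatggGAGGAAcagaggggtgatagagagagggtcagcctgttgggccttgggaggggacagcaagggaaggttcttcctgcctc
C1qc: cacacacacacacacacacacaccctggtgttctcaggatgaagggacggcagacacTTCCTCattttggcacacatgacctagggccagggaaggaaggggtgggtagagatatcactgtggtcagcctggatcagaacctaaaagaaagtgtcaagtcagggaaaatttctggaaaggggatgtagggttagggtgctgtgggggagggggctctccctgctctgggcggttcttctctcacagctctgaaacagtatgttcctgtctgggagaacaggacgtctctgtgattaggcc
Both strands were searched, and the motifs were chosen after the sequences were read. Of 32851 mouse promoters of the same length, 20.8% hold TGACG and 28.3% hold GAGGAA on either strand, so these matches are a description and no evidence of binding. The full element TGACGTCA, which contains TGACG and is held by 1.8% of promoters, was not found in the Fosb window, nor was the serum response element, held by 1.6%.

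Other immediate early genes differed less. Fos, the founding member of the family, stood at 245.1, 273.9 and 282 CPM with isotype antibody and 218.8, 175.9 and 156.8 CPM in untreated wells. Egr1, a zinc finger factor induced by growth factors and adhesion, stood at 16.3, 13.77 and 14.57 against 11.24, 9.85 and 7.509 CPM. For both genes every isotype antibody library was above every untreated library, and untreated 7 was the highest of the untreated ones. Their log2 fold changes were 0.55 (SE 0.14) for Fos and 0.61 (SE 0.16) for Egr1, and neither passed (limma adjusted p = 0.346 for each, 0.00613 and 0.00986 without untreated 7). Over the alternatives the adjusted p ran from 0.00559 to 0.877 for Fos and from 0.00746 to 0.877 for Egr1. The passes without untreated 7 are no separate support, since that library was singled out by its values.

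Klf4, a factor of monocyte differentiation, stood at 28.25, 32.3 and 32.97 CPM against 32.29, 17.02 and 16.49 CPM, so that untreated 7 matched the isotype antibody libraries and only untreated 8 and 9 were low. Junb, Jun and Atf3, which are far more abundant, overlapped between groups. Junb was at 312.1 to 395.9 CPM with isotype antibody and 339.3 to 398.3 CPM without, Jun at 398.1 to 456.8 and 408.5 to 509.6, and Atf3 at 474.6 to 505 and 462.4 to 480.9. Of the 22 immediate early genes on the list, all tested, 1 rose and 0 fell in limma. Of these 22, 7 had an unadjusted p under 0.05, beside 12.7% of all tested genes. In 5 of the 22 the isotype antibody libraries were all higher and in 1 all lower. The shares over all tested genes were 7.61% higher and 5.51% lower. The median log2 fold change of the 22 was 0.04, beside 0 over all tested genes. Without untreated 7, 5 rose and 2 fell, in a fit that called 9.58% of all 13983 genes tested higher and 6.85% lower. DESeq2 on deposited counts called Fos and Fosb higher, in a fit that called 148 of 17185 genes.

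**Figure D2:**
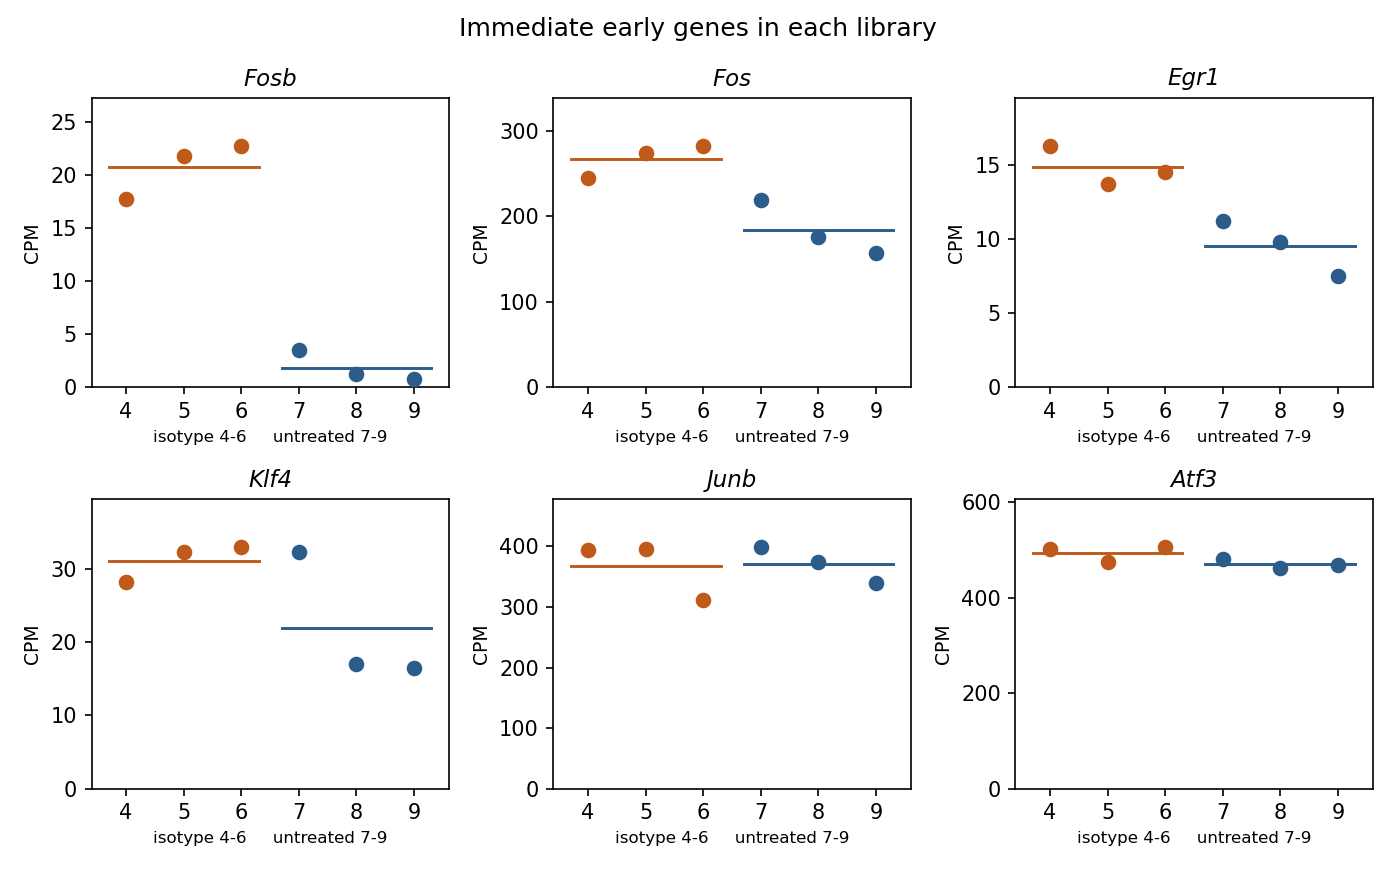
CPM (linear axis from 0) of 6 immediate early genes in isotype antibody libraries 4 to 6 and untreated libraries 7 to 9; each point is a library and each line a group mean. Fosb is between 17.73 and 22.7 CPM with isotype antibody and between 0.7463 and 3.513 without, while Junb and Atf3 overlap.

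The 3 C1q chains, Apoe, Mrc1 and Selenop were each highest in untreated 8 and 9. C1qa stood at 499.1, 211.7 and 163.7 CPM with isotype antibody and at 245, 1236 and 1067 CPM in untreated 7, 8 and 9. C1qb stood at 1958, 1409 and 984.8 against 1321, 3477 and 3418 CPM, and C1qc at 1678, 1160 and 812.3 against 1152, 3038 and 2942 CPM. For all 3 chains untreated 8 and 9 were high, and untreated 7 lay inside the range of the isotype antibody libraries, so the groups overlapped. Per kilobase of exon, C1qa was the lowest of the chains in every library (1143 CPM per kb in untreated 8, against 3274 for C1qb and 2883 for C1qc).

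Log2 fold changes of the C1q chains were -1.40 for C1qa (SE 0.55), -0.84 for C1qb (SE 0.34) and -0.90 for C1qc (SE 0.34), and none passed (limma adjusted p = 0.362, 0.364 and 0.36). Without untreated 7 they were -2.15, -1.30 and -1.36, and all 3 passed (limma adjusted p = 0.00287, 0.00341 and 0.00324). These chains were named to show how the untreated libraries differ, and untreated 7 is the one that departs. Passing once it is left out is therefore no separate support for a difference. Over the alternatives the adjusted p of the 3 chains ran from 0.00287 to 0.877. The genes lie next to each other on chromosome 4 on the minus strand, C1qb at 136880145 to 136886177, C1qc at 136889802 to 136892914 and C1qa at 136895916 to 136898844.

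Apoe, the most abundant of these transcripts, stood at 7732, 5441 and 3273 CPM with isotype antibody and 4586, 16500 and 15150 CPM in untreated wells. Mrc1 stood at 96.31, 82.39 and 55.31 against 48.95, 276.9 and 225.7 CPM. Selenop, which encodes a secreted selenium carrier, stood at 1594, 1529 and 963.5 against 908.5, 3518 and 3222 CPM. Untreated 7 was below all 3 isotype antibody libraries for Mrc1 and Selenop and between isotype 5 and 6 for Apoe, whereas untreated 8 and 9 were above all of them. Log2 fold changes were -1.02 for Apoe (SE 0.44), -0.93 for Mrc1 (SE 0.51) and -0.71 for Selenop (SE 0.41), with limma adjusted p = 0.38, 0.45 and 0.475. Without untreated 7 they became -1.61, -1.70 and -1.34 and passed (limma adjusted p = 0.00374, 0.00119 and 0.00146). Apoe, Mrc1 and Selenop were also named for their spread among untreated libraries, so these passes too are no separate support. The highest adjusted p over the alternatives was 0.877 for Apoe, 0.905 for Mrc1 and 0.909 for Selenop. Apoe lies on chromosome 7 (19696244 to 19698398, minus strand), and Mrc1 on chromosome 2 (14229414 to 14332023, plus strand), where the microRNA gene Mir511 sits inside it. Selenop on chromosome 15 overlaps Ccdc152, so part of its reads could belong to that gene.

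**Figure D3:**
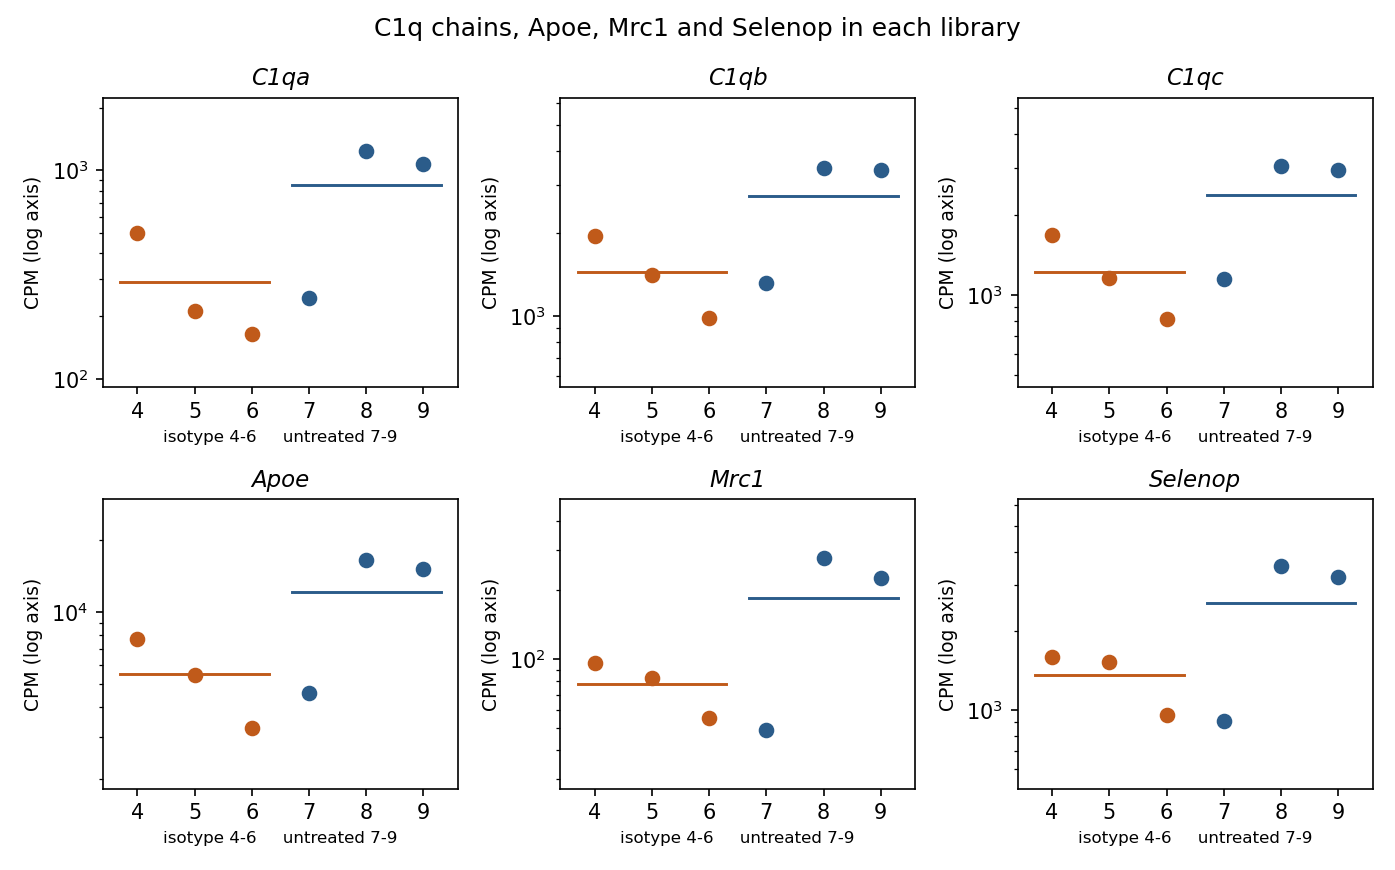
CPM (log axis) of C1qa, C1qb, C1qc, Apoe, Mrc1 and Selenop in isotype antibody libraries 4 to 6 and untreated libraries 7 to 9; points are libraries, lines group means. In every panel untreated 8 and 9 are the highest and untreated 7 lies with or below the isotype antibody libraries, for example 245 against 1236 and 1067 CPM for C1qa.

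Among genes with a mean of at least 5 CPM in the group, 243 of 9866 (2.46%) differed by more than 2-fold between the highest and lowest untreated library. The same count was 67 of 9876 (0.678%) within the isotype antibody libraries and 33 of 9721 (0.339%) within the PD-L1 antibody libraries. Untreated 7 was the library farthest from the other 2 in 231 of the 243 genes, being the high one in 164 and the low one in 67. Without untreated 7 the count over 2-fold was 4. For 105 of the 243 genes (43.2%) untreated 7 lay inside the range of the isotype antibody libraries, against 20 (8.2%) for untreated 8 and 13 (5.3%) for untreated 9. Over all tested genes these shares were 48.7%, 33.2% and 33.8%.

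By the ratio of highest to lowest untreated library, the leading genes in which untreated 7 was low were Mrc1, C1qa, Selenop and Gpr34, a receptor for lysophosphatidylserine (5.736, 25.14 and 18.14 CPM in untreated 7, 8 and 9). Those in which it was high included Id3, an inhibitor of basic helix-loop-helix factors (129.6, 27.27 and 26.71 CPM), Smad6, an inhibitor of BMP signalling (26.02, 4.44 and 4.949), and Uchl1, a deubiquitinating enzyme (49.39, 12.15 and 9.659). Cd34, a surface glycoprotein of progenitor cells, stood at 13.69, 2.789 and 2.946 CPM. The matrix proteoglycan gene Vcan stood at 28.83, 5.962 and 6.562, and Dmpk, a kinase gene, at 14.92, 2.137 and 2.422. In all of these untreated 8 and 9 were nearer to each other than to untreated 7. For Id3 and Smad6 untreated 7 was also above every isotype antibody library (64.11, 67.86 and 85.19 CPM for Id3, 10.9, 11.3 and 12.62 for Smad6), so it did not always resemble them.

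Igfbp3 departed from that pattern. This insulin-like growth factor binding protein gene stood at 6.514, 13.5 and 1.677 CPM in untreated 7, 8 and 9 and at 2.467, 0.8544 and 0.3055 CPM with isotype antibody, so that untreated 9 was the low library and the groups overlapped. Markers of fibroblasts and stroma, which include collagen chains named below, are given beside it, and their part in the Igfbp3 values was not tested. Their sum over 8 tested genes was 70.22, 67.98 and 38.25 CPM in untreated 7, 8 and 9 and 30.32, 51.38 and 31.41 CPM in isotype 4, 5 and 6. Col1a1 was at 29.14, 27.05 and 13.66 CPM in the untreated and at 11.22, 18.95 and 10.91 CPM in the isotype antibody libraries. Untreated 9 was the lowest untreated library for Igfbp3, for the sum and for Col1a1. Isotype 5 had a higher sum than untreated 9 and a lower Igfbp3 value. Lum and Lepr did not pass the filter on low values. Of the 8 tested markers, 7 had a lower mean with isotype antibody and none passed in limma. An unadjusted p under 0.05 was found for 3 of the 8, beside 12.7% of all tested genes. Groups were apart and lower for 2, beside 5.51% of all tested genes.

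Within the isotype antibody libraries the 8 widest ratios were those of Nptx1, Saa3, Slfn4, Eps8l1, C1qa, Uchl1, Slfn1 and Cspg4. Nptx1, a secreted pentraxin gene, stood at 5.814, 14.84 and 35.65 CPM in isotype 4, 5 and 6, and Uchl1 at 17.45, 38.84 and 54.81. Saa3, an acute-phase protein gene, stood at 161.2, 70.36 and 36.88 CPM, and the Schlafen genes Slfn4 and Slfn1 at 17.69, 4.535 and 10.83 and at 63.27, 21.02 and 33.1. Isotype 4 was the high library for Saa3, Slfn4, Slfn1 and C1qa and the low one for Nptx1, Uchl1 and Cspg4. Untreated wells spanned much of the same ground for Saa3 (72.83, 88.57 and 187.9 CPM).

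Several receptors for the constant part of antibodies were highest in untreated 8 and 9. Fcgr2b, the inhibitory receptor, stood at 130.9, 116.3 and 86.24 CPM against 83.05, 202.6 and 219.6 CPM. Fcgr3, an activating low-affinity receptor, stood at 352.8, 364.3 and 258.7 against 247.1, 580.3 and 613.5, and Fcgrt at 109.2, 121.9 and 77.18 against 89.41, 224.7 and 209. In all 3 genes untreated 8 and 9 were above the highest isotype antibody library, and untreated 7 was below the lowest for Fcgr2b and Fcgr3 and inside the range for Fcgrt. The high-affinity receptor gene Fcgr1 overlapped (468.4 to 760.8 and 596.4 to 880.9 CPM), as did the kinase gene Syk (623.4 to 681.8 and 571.5 to 629.4). Of 17 Fc receptor and signalling genes tested, 0 rose and 0 fell in limma, and DESeq2 called none. Of the 17, 5 had an unadjusted p under 0.05, beside 12.7% of all tested genes. No member had groups that did not overlap, beside 7.61% of all tested genes apart and higher and 5.51% apart and lower. The median log2 fold change of the list was -0.10. Without untreated 7, 2 of the 17 rose and 8 fell, beside 9.58% and 6.85% of all genes. Among the falls were Fcgrt (-1.09, limma adjusted p = 0.00149) and the Fc receptor-like gene Fcrls (-1.28, limma adjusted p = 0.00191), and over the alternatives their adjusted p reached 0.877. Since untreated 7 was singled out by its values, the calls made without it are no separate support for a difference in this list.

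Most complement genes had lower means with isotype antibody, 14 of the 16 on the list of C1q and early complement genes, which holds the 3 C1q chains. Of the 16, 0 rose and 0 fell in limma, and the median log2 fold change was -0.32. An unadjusted p under 0.05 was found for 8 of the 16, beside 12.7% of all tested genes. Groups were apart and lower for 3 of the 16 and apart and higher for 1, beside 5.51% and 7.61% of all tested genes. Cd93, a surface glycoprotein once taken for a C1q receptor, stood at 853.4, 806.7 and 882.4 CPM against 729.6, 719.9 and 706.8 CPM, with no overlap and tight groups, and DESeq2 on deposited counts called it higher. Its log2 fold change was 0.24 (SE 0.08, limma adjusted p = 0.349). Serping1, the C1 inhibitor, was low and also apart (1.442, 0.7413 and 0.8046 against 1.777, 2.349 and 2.083 CPM). Properdin (Cfp), which stabilises the alternative pathway convertase, followed the C1q chains, with 347.2, 368.4 and 258.6 CPM against 302.2, 592.3 and 579.2 CPM. Without untreated 7, 1 member rose (C3) and 5 fell, namely the 3 C1q chains already described, Cfp and Serping1, in a fit that called 9.58% of all genes higher and 6.85% lower.

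No gene on the lists of inflammatory activation passed in limma with all libraries. An unadjusted p under 0.05 was found for 12.7% of all tested genes. Of 23 inflammatory cytokine and chemokine genes tested, 0 rose and 0 fell in limma (1 at an unadjusted p under 0.05), and DESeq2 called none. The mean was lower with isotype antibody for 18 of the 23 and higher for 5, beside 6866 lower of all 13728 tested genes. The median log2 fold change of the list was -0.14 and the lowest -0.68. Tnf stood at 15.96 to 18.5 CPM with isotype antibody and 16.5 to 23.74 CPM without, and Il1b at 22.1 to 39.43 and 26.23 to 28.09. The 95% intervals of their log2 fold changes ran from -0.51 to 0.34 for Tnf and from -0.33 to 0.49 for Il1b. The summed level of the list was 2166, 1878 and 1816 CPM against 1882, 2173 and 2414 CPM. Of 32 interferon-stimulated genes 0 rose and 0 fell (2 at an unadjusted p under 0.05, none in DESeq2), with a median log2 fold change of -0.06. The 20 genes of NF-kB feedback gave no call (1 at an unadjusted p under 0.05, none in DESeq2) and a median of 0.04. Without untreated 7 the calls were 0 and 3 (rises and falls) for cytokines, 0 and 1 for interferon-stimulated and 3 and 0 for NF-kB feedback genes, beside 9.58% and 6.85% of all genes. With length and GC trends removed as well, they were 0 and 0 for cytokines and for interferon-stimulated genes and 3 and 0 for NF-kB feedback genes. That fit called 6.2% of all genes higher and 5.89% lower. Socs1, a feedback inhibitor of cytokine signalling, was lower in every isotype antibody library (11.55, 14.66 and 8.924 against 18.36, 18.89 and 19.89 CPM, log2 fold change -0.68, limma adjusted p = 0.349).

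Cd274, the gene of PD-L1, was at 266, 178.1 and 235.4 CPM with isotype antibody and 215.3, 201.6 and 246.4 CPM without. The groups overlapped, the log2 fold change was 0.02 (SE 0.15, limma adjusted p = 0.967), and its 95% interval ran from -0.31 to 0.35. With the PD-L1 antibody it stood at 668.3, 752.5 and 566.8 CPM.

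In the remaining lists no gene passed in limma with all libraries, and the calls without untreated 7 went both ways. As a background to these lists, 12.7% of all tested genes had an unadjusted p under 0.05 with all libraries. Without untreated 7, 9.58% of all genes rose and 6.85% fell. As above, calls made without that library are a description and no separate support for a difference. Among 17 chemoattractant and purinergic receptors (4 at an unadjusted p under 0.05), 1 rose and 8 fell without untreated 7. Cmklr1, the chemerin receptor, stood at 28.02, 19.96 and 13.13 against 16.98, 52.53 and 48.48 CPM, and P2ry6, a receptor for UDP, at 212.9, 201.4 and 153.9 against 154.6, 339.4 and 314.9 CPM, both high in untreated 8 and 9 alone. Cx3cr1, the fractalkine receptor, was low in these (35.09, 65.06 and 68.8 against 60.87, 26.81 and 19.48 CPM). Among 22 adhesion and cytoskeleton genes (4 at an unadjusted p under 0.05), 8 rose and 0 fell without untreated 7, and 4 rose once trends with exon length and GC were removed as well. With the trends removed, 6.2% of all genes were called higher. The actin cross-linker Flna stood at 938.2, 1200 and 1300 CPM against 1134, 636.5 and 582.6 CPM.

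Among 16 oxidative stress genes (5 at an unadjusted p under 0.05, and G6pdx called higher by DESeq2), 6 rose and 0 fell without untreated 7. Slc7a11, the cystine transporter, stood at 24.76, 28.21 and 30.69 against 30.83, 10.61 and 12.1 CPM, and Txnrd1, thioredoxin reductase, at 138.3, 153.5 and 160.9 against 150.6, 104.6 and 101.7 CPM. For both, untreated 7 was as high as the isotype antibody libraries. Hmox1, heme oxygenase, was level in all 6 libraries (251.4 to 262.1 CPM). The 20 lipid-handling genes (2 at an unadjusted p under 0.05) gave 1 rise and 4 falls without untreated 7, and the 26 lysosomal genes (0 at an unadjusted p under 0.05) gave 1 and 6. For 40 cell cycle genes (3 at an unadjusted p under 0.05) it was 3 and 1, for 22 ribosomal protein genes (0 at an unadjusted p under 0.05) 0 and 2, and for 21 genes of M-CSF withdrawal and survival (4 at an unadjusted p under 0.05) 2 and 5. DESeq2 called none of these 5 lists' members, and none of the receptors or adhesion genes above. Of the other 10 lists (cholesterol synthesis, scavenger receptors, alternative activation, MHC class I and II, ER chaperones, heat shock, glycolysis, hypoxia targets, PD-1 family) none had more than 4 members at an unadjusted p under 0.05. Without untreated 7 each of these 10 had 0 to 3 rises and 0 to 3 falls. Over all 13983 genes tested without untreated 7 the calls were 1339 rises (9.58%) and 958 falls (6.85%).

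Among genes with a mean of at least 5 CPM whose groups did not overlap, the largest positive differences after Fosb were those of Lyst, F13a1, Cbl, Mki67, Lnpep, Ltf, Brwd3, Cd24a and Zbed6, and none of these 9 passed (limma adjusted p = 0.346 for each). Lyst, a regulator of lysosome size, stood at 119.6, 121.9 and 144.4 CPM against 117, 49.04 and 52.67 CPM (log2 fold change 0.92, SE 0.25). Cbl, the ubiquitin ligase that acts on the M-CSF receptor, stood at 97.59, 105.7 and 111.8 against 94.96, 51.63 and 47.38 CPM (0.76, SE 0.20). Mki67, the proliferation marker, stood at 33.93, 37 and 54.08 against 32.25, 21.36 and 20.33 CPM (0.73, SE 0.19). Untreated 7 was just below the lowest isotype antibody library in each of these 3 genes, and untreated 8 and 9 were far below it. F13a1, coagulation factor XIII chain A, was graded differently, with 36.93, 46.55 and 50.59 against 33.16, 27.6 and 18.5 CPM. Cbl, Lnpep, Brwd3, F13a1, Mki67 and Zbed6 overlap other annotated genes, and Zbed6 lies within Zc3h11a, so reads could be shared. With trends in exon length and GC removed, log2 fold changes were 0.625 for Lyst, 0.647 for Cbl and 0.476 for Mki67. Of these 9 genes only Cd24a had a larger one than before (0.726, against 0.669). Of 40 cell cycle genes, 2 had groups apart and higher, beside 7.61% of all tested genes.

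Ltf, the granule protein lactoferrin, stood at 262.1, 158.1 and 155.8 CPM against 108.9, 135 and 101.1 CPM (log2 fold change 0.70), with untreated 7 and 9 the lowest. It is a marker of granulocyte precursors. The summed level of the 14 tested markers of that lineage was 1428, 792.6 and 813.4 CPM with isotype antibody and 612, 808.5 and 655.4 CPM without, with Ngp at 208.2 to 401.3 and 159.9 to 213 CPM. The mean was higher with isotype antibody for 11 of these 14 markers. Groups were apart for Ltf and Mmp8, beside 7.61% of all tested genes apart and higher. Ly6g did not pass the filter on low values. The part of these markers in the result was not tested.

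The largest negative differences by the same rule included those of Col6a1, Col1a2, Socs1, Scand1, Bbc3, Pdgfc, Snhg20, Ccdc71l and Ang, none of which passed (limma adjusted p = 0.346 to 0.364). Bbc3, which encodes the pro-apoptotic protein PUMA, stood at 43.48, 47.28 and 32.29 against 50.97, 70.69 and 69.35 CPM (-0.62, SE 0.19). Col1a2 and Col6a1, collagen chains, were at 7.228, 9.602 and 7.735 against 13.93, 18.41 and 9.856 and at 4.633, 5.023 and 2.882 against 8.427, 10.55 and 5.755 CPM, beside the fibroblast marker sums given with Igfbp3, whose part in these 2 genes was not tested. Ang overlaps Rnase4, and Scand1 overlaps Cnbd2. With trends in exon length and GC removed, Scand1 went from -0.637 to -0.321, Socs1 from -0.681 to -0.449 and Bbc3 from -0.62 to -0.42. Col6a1, Col1a2 and Pdgfc moved the other way, to -0.871, -0.795 and -0.632. C1qtnf1, a secreted C1q and TNF related protein gene below that level rule, came nearest to the threshold after Fosb. It was at 0.3163, 0.4554 and 0.3495 CPM against 1.412, 2.123 and 2.127 CPM, with no overlap (log2 fold change -1.06, SE 0.14, limma adjusted p = 0.0614), and was chosen after its values were seen. The deposited reads over the whole span of C1qtnf1 overlapped between groups, at 0.8, 1.48 and 1.62 against 1.39, 2.28 and 2.57 per 1e+06 span reads. On those reads the log2 fold change was -0.69 in edgeR and -0.72 in DESeq2 (adjusted p = 0.53 and 0.504), and over 21 alternatives it ran from -2.33 to -0.36, with an adjusted p of 0.00067 to 0.53.

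**Figure D4:**
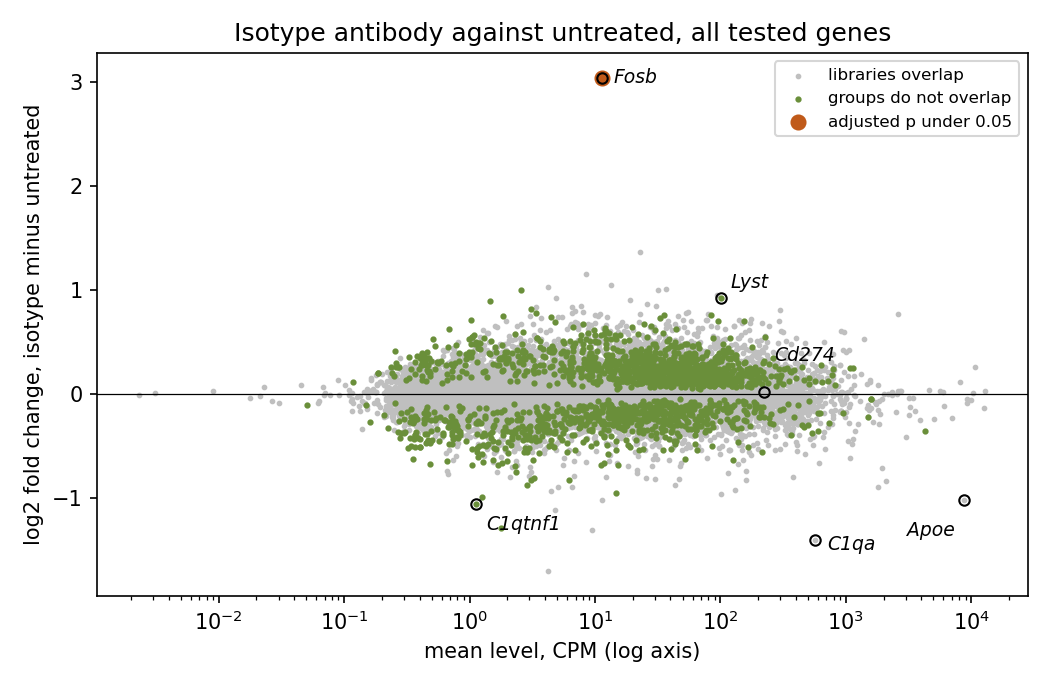
Log2 fold change (isotype minus untreated, vertical) against mean level of each tested gene (CPM, log axis); green points have groups that do not overlap and the orange point passed at an adjusted p under 0.05. Fosb stands alone at 3.05, while C1qa at -1.40 and Apoe at -1.02 have libraries that overlap.

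Without untreated 7, 2297 of 13983 genes passed in limma (16.4%), 1339 higher and 958 lower with isotype antibody, and of these 78 were at least 2-fold higher and 39 at least 2-fold lower. That fit has 2 untreated libraries that lie close together. Leaving out isotype 4, 5 or 6 or untreated 8 or 9 gave 0 calls in limma, with 1795, 1510, 777, 697 and 845 genes at an unadjusted p under 0.05.

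The differences moved with the exon length of the gene. Across 9871 genes with a mean of at least 5 CPM, which are not independent replicates, Spearman's rho between exon length and the isotype minus untreated difference was 0.5, and with GC percent it was -0.18. The fifth of genes with the shortest exons (53 to 1664 bases) had a median log2 fold change of -0.10 and the fifth with the longest (4810 to 83440 bases) one of 0.17. Against untreated 8 and 9 the rho with length was 0.48 and with GC percent -0.03. Against untreated 7 it was 0.12 and -0.56. For untreated 7 minus the mean of untreated 8 and 9 the rho with length was 0.35 and with GC percent 0.23. Relative to untreated 8 and 9, untreated 7 and the isotype antibody libraries thus shared the direction of the length trend. Their trends with GC percent were unlike. With trends in both removed, 1 gene passed with all libraries, again Fosb, and 1691 of 13983 (12.1%) passed without untreated 7, of which 867 were higher (6.2%) and 824 lower (5.89%). Of these 1691 calls 1347 (79.7%) were among the 2297, and they made up 58.6% of the 2297.

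**Figure D5:**
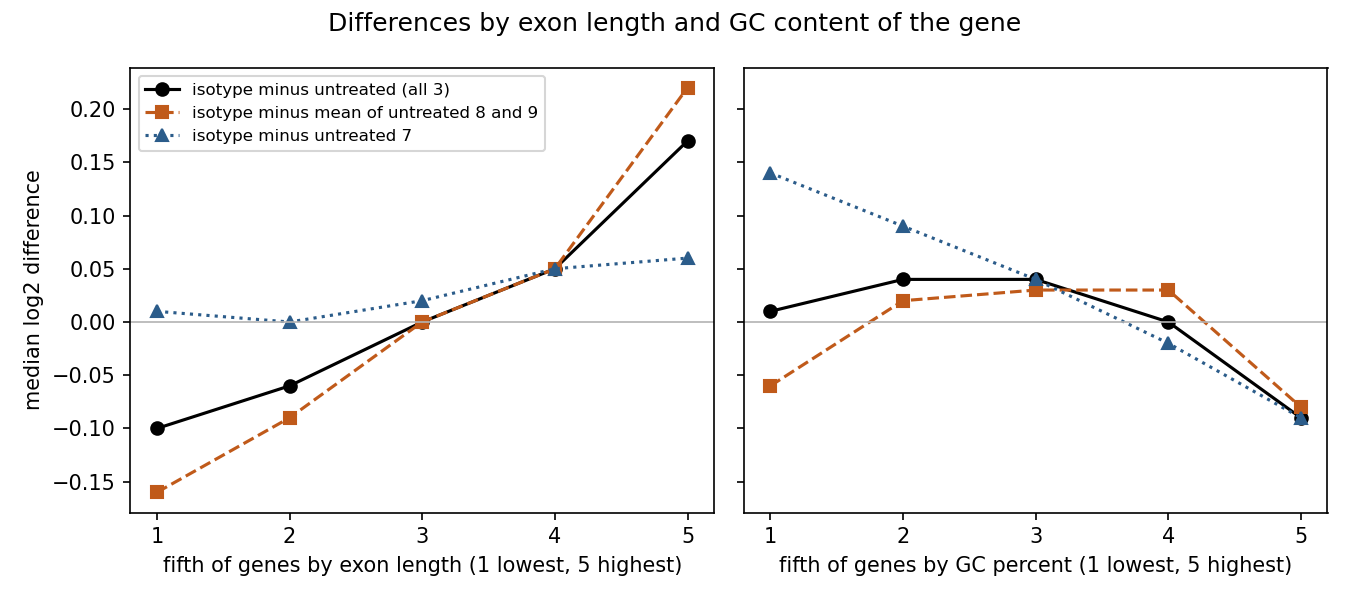
Median log2 difference of genes in 5 equal bins by exon length (left) and GC percent (right), for isotype antibody against all untreated libraries, against untreated 8 and 9, and against untreated 7. By length the difference from all untreated libraries goes from -0.10 to 0.17, and by GC the difference from untreated 7 goes from 0.14 to -0.09.

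Markers of erythroid cells and megakaryocytes summed to 142.1, 133.6 and 92.14 CPM with isotype antibody and to 163.6, 199.3 and 172.1 CPM without, so the groups did not overlap. The mean of each of the 7 tested members was lower with isotype antibody, and none passed in limma. Of the 7, 3 had an unadjusted p under 0.05, beside 12.7% of all tested genes. Values of the members overlapped gene by gene, as for Pf4, platelet factor 4 (71.21, 65.04 and 47.92 against 66.43, 113.2 and 108.4 CPM). Without untreated 7, 2 of the 7 fell, Pf4 and Hbb-bs, in a fit that called 6.85% of all genes lower. Klf1, Alas2 and Car1 did not pass the filter on low values. The part of these cells in the other results was not tested.

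Mast cell, basophil and eosinophil markers summed to 56.96 to 124.7 CPM with isotype antibody and 68.08 to 86.74 without. T and NK markers summed to 6.294 to 24.52 CPM, led by Cd4 (8.205, 4.175 and 2.769 against 7.34, 17.37 and 16.99 CPM), while Cd3e was under 1 CPM in all 6 libraries (0.1104 to 0.8233). B cell markers summed to 4.926 to 10.15 CPM, and Ms4a1 did not pass the filter on low values. Dendritic cell markers summed to 765 to 1051 CPM with isotype antibody and 800.9 to 1103 without. Endothelial markers were highest in untreated 7 (215.6 CPM, against 109.1 and 99.3 in untreated 8 and 9 and 164.1 to 193.6 with isotype antibody), through Kdr (91.84 CPM in untreated 7), while Cdh5 stayed at 0.5847 to 4.794 CPM. No dendritic or endothelial marker passed in limma with all libraries. Without untreated 7, 3 of 12 dendritic and 2 of 5 endothelial markers rose and none fell, beside 9.58% of all genes higher.

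The 95% intervals given here are for single genes and are not adjusted for the number of genes tested. Differences as large as that of C1qa (log2 fold change -1.40) did not pass after adjustment (limma adjusted p = 0.362). The median SE over tested genes was 0.128 on the log2 scale and the median half-width of the 95% interval 0.28. For 9628 of 9871 genes with a mean of at least 5 CPM (97.5%) the 95% interval lay within a 2-fold change in either direction. These intervals rest on a spread shared by all 9 libraries, untreated 7 included.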

How the data were processed

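Paired 150-base HiSeq reads came from oligo(dT)-selected RNA, and the submitters' processing notes name Partek and STAR without versions. The deposited files list RefSeq transcripts with read counts over each genomic span, a signal column (average coverage per exonic base), exon length and GC percent, per the file headers. The build is not given in the sources used here, and positions matched GRCm38 (13325 of 13393 genes, 99.49%).

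Exonic read equivalents were coverage times exon length over 150, for 1 transcript per symbol (the largest). Of 22376 symbols, 13728 passed edgeR's filterByExpr. After TMM scaling, log2(CPM + 1) values of all 9 libraries were fitted in limma 3.58.1 (trended variance, a mean for each group) and tested two-sided with Benjamini-Hochberg adjustment at 0.05. Intervals cover the spread between samples; reads carry no molecular identifiers, so PCR copies are not separate molecules.

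Members, gene lists and tests were chosen with earlier results of these data known. Named genes were C1qa, C1qb, C1qc, Apoe, Mrc1 and Cd274, genes that passed, the 10 largest differences each way among genes with groups apart, the 15 and 8 widest ratios within untreated and isotype antibody libraries, and 2 to 4 members per list by p. Other genes named from the lists were chosen after their values were seen, to show members alongside. Alternatives used edgeR 4.0.16, DESeq2 1.42.0, array weights, other scalings, filters, pseudocounts and transcript sums, and left out each library; removal of trends with exon length and GC (loess, span 0.3) was added after the data were seen. The procedure was tested on simulated data. The software was R 4.3.3 and Python 3.11.15. Some genes that the rule would name are not reported here.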

Additional observations from a re-analysis of the deposited data

How the results depend on the processing

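No paired analysis was made because the labels give no pairing of isotype antibody with untreated libraries. The number of genes called was 1 in the reported limma fit. It stayed 1 with median-of-ratios or upper-quartile scaling, a minimum mean of 5 CPM, pseudocounts of 0.5 and 5, and exon length trends or length and GC trends removed, and that gene was Fosb each time. With no filter it was also 1, but the gene was Pi15. It was 2 with total counts only or with transcripts summed (Fosb and C1qtnf1), 2 at a threshold of 0.1 (the same genes) and 0 at 0.01. In edgeR on deposited read counts it was 2 (the small RNA genes Mir7213 and Snora69). It was 0 in the fit of the 6 libraries alone in limma (1266 at an unadjusted p under 0.05) and 0 in edgeR on exonic read equivalents (1720). DESeq2 on deposited read counts called 148, array weights (0.214 for untreated 7, 1.86 and 1.723 for untreated 8 and 9) 2550, and removal of untreated 7 together with length and GC trends 1691. Leaving out 1 library gave 0 to 2297, and the 2297 came without untreated 7. The cause of these changes was not tested.

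Fosb was not called without isotype 4, 5 or 6 or untreated 8 or 9, in the 6 libraries alone (limma adjusted p = 0.108), with no filter (0.163), or in edgeR on exonic (0.0638) or deposited reads (0.418). The number of genes over 2-fold within untreated libraries was 243 and became 133 at a minimum mean of 20 CPM, 1189 at a limit of 1.5-fold, and 4 to 195 without 1 library. Within isotype antibody libraries it was 67 and became 33, 453, and 13 to 39. The log2 fold change of Cd274 (0.02) changed sign with array weights (-0.004), with length trends (-0.007) or length and GC trends removed (-0.023), with the latter and without untreated 7 (-0.014), and without single libraries (-0.104 to 0.184); its adjusted p was 0.617 or above throughout. Depth limits low genes most, and untreated 7 was the shallowest library of the 6.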
